A study of Caenorhabditis elegans with 2 samples.

Results

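One-strand promoters are taken here as candidate binding regions of the C. elegans transcription factor PHA-4. Their summit lay near the start of protein-coding genes on a single DNA strand, so that each region has a gene direction. The nuclear regions of the authors' pooled list were ranked by signal and the 4000 strongest were kept. A region was a member when its summit lay from 1000 bp upstream to 200 bp downstream of the 5′ end of protein-coding transcripts on exactly 1 strand. There were 1695 members, 42.4% of the 4000 strongest and part of 24890 regions in the list. By its label the list holds peaks and background, and 4065 of its regions had a q-value of 0.05 or less, among them all 1695 members. Only 352 members (20.8%) were in the authors' optimal list, which passed their reproducibility test. Another 499 of the 4000 lay in windows of both strands and are called divergent promoters, and 1806 lay in no window. A further set, called background-level regions, held 3440 regions with a summit in windows of 1 strand but from the lower 50% of the list by signal.

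Chromatin immunoprecipitation and sequencing (ChIP-seq) was done on whole young adult animals of strain OP37, genotype unc-119(ed3) III; wgIs37, in which wgIs37 is an inserted transgene for PHA-4 fused to eGFP. The sex is given in the sources as males and females pooled, which was not checked, and the age only as young adult. There were 2 biological replicates in 1 group, and all samples carry the unc-119 allele and the transgene. Whole animals mix every tissue, so no value is tied to a cell type, and the number of transgene copies is not given in the sources used here.

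PHA-4 is the worm FoxA factor, a forkhead protein that specifies the pharynx and foregut in the embryo and acts later in gut cells and in diet-dependent lifespan. A promoter between genes that point the same way serves 1 of them, whereas head-to-head genes share an intergenic region. Many worm messages are trans-spliced, so an annotated 5′ end can lie downstream of the place where transcription begins.

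Replicate 1 stood apart from replicate 2. In the list of replicate 1, 0 of 29980 nuclear regions had a q-value of 0.05 or less, and the lowest nuclear q was 0.163. In the list of replicate 2, 7548 of 30000 did. Of the members, 1693 (99.9%) overlapped a region of replicate 2 and 1062 (62.7%) overlapped a region of replicate 1, with 1 bp as the minimum. The same shares were 99.6% and 61.9% for divergent promoters and 69.0% and 42.9% for background-level regions, so many overlaps with replicate 1 arise without strong signal. With an overlap of at least 50%, the members' share in replicate 1 was 48.3%, against 31.9% of background-level regions. Only 319 members ranked among the 4000 strongest regions of both replicates, against 1056 for replicate 2 alone, 130 for replicate 1 alone and 190 for neither. Over the 1061 members with a region in both lists, Spearman's rho of the replicate signals was -0.07, a description only. The optimal list is the 839 strongest regions of the pooled list. Some members in it overlapped no region of replicate 1, such as those at pha-4 (rank 41) and lec-7 (rank 391). Being in the optimal list therefore does not show that a member was found in both replicates. Results are therefore also given for each replicate's own list. Read depth is unknown, so no value carries a depth-based error.

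Members of several kinds show the DNA under the summit, each a member of strong signal that held a given motif in a stretch free of exons. The motifs are short words that were more frequent at summits than in the flanks, as the shares further on show. Each sequence runs 45 bp to either side of the summit in the direction of the gene, from the RefSeq genome of build ce11 (WBcel235), and capitals mark the word. The first holds the forkhead word recognised by FoxA proteins, the others a GATA factor word, a GAGA repeat, an E-box, the word CTGCGTC, an E2F word and a GC box.
his-37, forkhead, chrV:9546949-9547039, plus strand: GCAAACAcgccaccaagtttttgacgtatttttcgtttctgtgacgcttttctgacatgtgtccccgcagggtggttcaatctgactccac
nhr-291, GATA, chrV:15318769-15318859, plus strand: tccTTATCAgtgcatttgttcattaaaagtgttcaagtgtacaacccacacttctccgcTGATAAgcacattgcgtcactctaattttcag
hsp-1, GAGA repeat, chrIV:17278560-17278650, plus strand: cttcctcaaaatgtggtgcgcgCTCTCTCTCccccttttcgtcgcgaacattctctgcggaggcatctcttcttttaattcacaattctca
epg-7, E-box, chrX:7334525-7334615, plus strand: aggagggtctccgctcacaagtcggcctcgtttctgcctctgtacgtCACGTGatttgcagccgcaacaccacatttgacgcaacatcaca
sec-61.G, CTGCGTC, chrV:10897327-10897417, minus strand: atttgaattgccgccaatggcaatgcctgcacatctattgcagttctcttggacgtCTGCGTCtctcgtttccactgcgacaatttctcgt
ins-39, E2F, chrX:1345004-1345094, minus strand: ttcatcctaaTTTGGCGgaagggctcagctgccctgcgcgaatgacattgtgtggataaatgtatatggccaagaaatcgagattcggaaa
vig-1, GC box, chrII:1320556-1320646, plus strand: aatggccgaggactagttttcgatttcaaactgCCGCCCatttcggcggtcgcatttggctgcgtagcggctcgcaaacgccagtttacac
In his-37 the forkhead word reads away from the gene, as the reverse complement of TGTTTGC. In hsp-1 the repeat reads CTCTCTC towards the gene. In sec-61.G, ins-39 and vig-1 the word reads towards the gene as written.

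Signal, a value of the authors with no unit given, chose the members, so it is described and not tested. It ran from 22.3 to 168.7 with a median of 30.3 and quartiles of 25.5 and 38.9. The divergent promoters had a median of 35.0. The share of one-strand promoters was nearly the same along the ranking, at 42.0% of the 839 strongest regions, which form the authors' optimal list, 42.7% of the next 1161 and 42.4% of the last 2000. Divergent promoters made up 20.02%, 13.4% and 8.75% of the same regions. At the limit, the last member inside was the region at F58D5.5 at rank 4000 with a signal of 22.32, and the first region of the kind outside was at K02C4.2 at rank 4002 with 22.31. An upstream limit of 1100 bp would have added 67 regions and made 36 members divergent.

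The strongest member lay 37 bp upstream of Y39B6A.43 on chromosome V, at chrV:18967776-18967928. Its signal was 168.7 in the pooled list, 166.7 in replicate 2 and 4.55 in replicate 1, where it ranked 23954. The next was 282 bp upstream of rpl-3, which encodes a large ribosomal subunit protein, with 142.0 pooled, 133.7 in replicate 2 and 12.9 in replicate 1. The region 229 bp upstream of sec-61.G, a subunit of the protein channel of the endoplasmic reticulum, had 117.7 pooled, 113.7 in replicate 2 and 7.12 in replicate 1. The 3 held ranks 1, 4 and 10 of replicate 2, and ranks 23954, 332 and 6658 of 30000 in replicate 1, so the region at rpl-3 was near the top of both lists.

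Among the 20 strongest members there followed the regions at H41C03.3, at cdc-48.1 (the segregase ATPase that extracts ubiquitylated proteins), cox-5A (a cytochrome oxidase subunit), puf-9 (a Pumilio-family RNA-binding protein) and hsp-1 (the constitutive Hsp70). Then come vig-1 (an RNA-induced silencing complex component), rpl-11.2, sco-1 (a copper chaperone for cytochrome oxidase), rpl-35, the histone gene his-37 and egg-5 (a protein of egg activation). The rest were bag-1 (an Hsp70 cochaperone), ins-39 (an insulin-like peptide), eif-3.C (a translation initiation factor subunit), pha-4 itself, W08E12.7 and cbp-1 (a histone acetyltransferase). In the 19 of these with a region in replicate 1, the values there ran from 4.31 at hsp-1 through a median of 9.57 at his-37 to 19.1 at ins-39. In replicate 2 the 20 values ran from 70.6 at ins-39 to 166.7 at Y39B6A.43, and the scales of the replicate lists differ, with a highest nuclear signal of 27.0 in replicate 1. By rank, some of these regions stood high in replicate 1 too, namely ins-39 at rank 12, bag-1 at 211, vig-1 at 224 and cbp-1 at 338, whereas hsp-1 was at 26687 and cdc-48.1 at 25925. The histone genes exist in near-identical copies, and how the authors placed reads from such copies is not given in the sources used here.

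**Figure D1:**
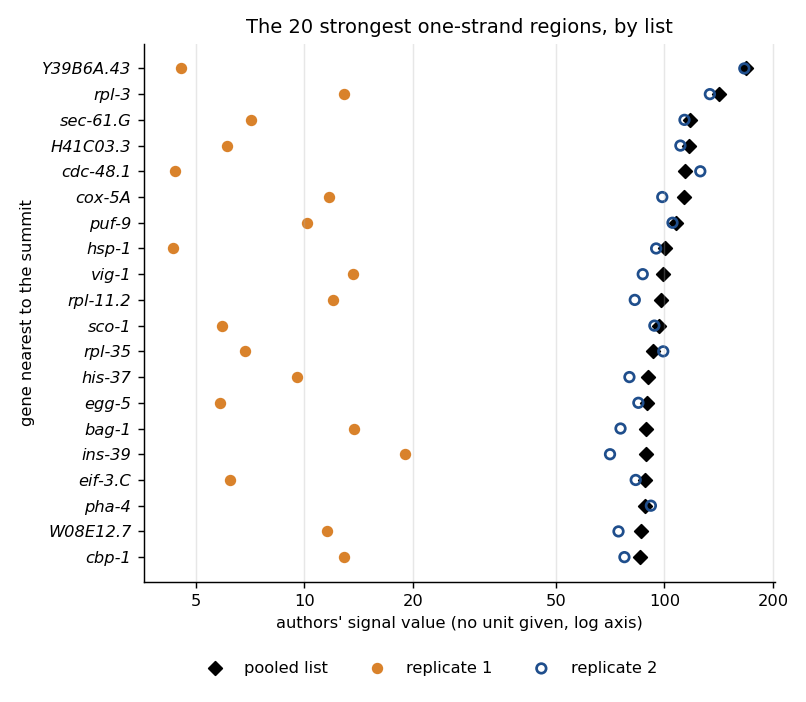
Signal value on a log axis for the 20 strongest one-strand regions, named by the gene nearest to the summit, in the pooled list (black diamonds), replicate 1 (filled orange circles) and replicate 2 (open blue circles). Replicate 2 values lie between 70.6 and 166.7 beside the pooled values, replicate 1 values between 4.31 and 19.1, and pha-4 has no replicate 1 region.

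The gene pha-4 had 6 members, the most of any gene. Their pooled signals were 88.1, 66.0, 46.7, 30.4, 27.6 and 27.5, and 4 of the summits lay in introns, next to 5′ ends of shorter transcripts. The strongest, at chrV:20756610-20756949, was 130 bp upstream of such an inner 5′ end and held a forkhead word and an E-box. It had a signal of 91.7 in replicate 2 and overlapped no region of replicate 1. A pair of the 6 overlapped the same region of replicate 2, so they are not separate peaks there. The transgene carries pha-4, and its copies and binding at the native locus cannot be told apart. The genes egl-27 (a chromatin regulator related to metastasis-associated proteins) and egl-9 (the prolyl hydroxylase that marks HIF-1 for degradation) had 5 members each. Their pooled signals ran from 24.9 to 43.0 and from 23.2 to 32.4. F26F12.3 and wdr-23 (a ubiquitin ligase adaptor that restrains SKN-1) had 4 members each, up to 40.6 and 32.0. In all, 133 genes had 2 or more members and 1442 had 1.

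The members' windows named 1575 protein-coding genes, 7.89% of 19973, and divergent regions named 996 genes, 4.99%. These shares are the background for the gene lists that follow, which are described by counts because the members were chosen by signal. The window held 1 gene for 1650 members and 2 genes for 45. The plus and minus strands were served by 850 and 845 members.

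Galectins, which are sugar-binding lectins, had the highest share of the 22 lists, with 8 of 12 genes having a one-strand region (66.7%) and 0 a divergent one. At lec-9 the signal was 60.3 pooled, 53.6 in replicate 2 and 5.88 in replicate 1. At lec-7 it was 52.0 pooled and 53.4 in replicate 2, with no replicate 1 region, and at lec-1 it was 48.8, 46.8 and 6.98 in the same order as for lec-9. Of the 8 galectin regions, 7 held a forkhead word, against 36.3% of all members. The other lists counted in this way had 5 of 20 regions for cytosolic ribosomal proteins, 14 of 38 for nuclear hormone receptors and 5 of 8 for mitochondrial ribosomal proteins. A high share was thus not general to the lists, and none of these counts was tested. Vacuolar ATPase genes, which encode the proton pump of acidic organelles, had 6 of 20 (30%) with a one-strand region, led by vha-15 at 48.3, vha-12 at 35.0 and vha-9 at 27.01.

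Cytosolic ribosomal protein genes had 20 of 78 (25.6%) with a one-strand region and 41 (52.6%) with a divergent one, against 7.89% and 4.99% of all genes. Their median one-strand signal was 44.0 and the highest were rpl-3, rpl-11.2 at 97.8 and rpl-35 at 93.1. Mitochondrial ribosomal protein genes had 8 of 70 (11.4%), led by mrpl-28 at 41.4, mrpl-47 and mrpl-15 both at 35.6. Translation factors had 4 of 33 (12.1%), with eif-3.C at 88.1, eef-1A.2 at 61.5 and eif-3.B at 61.4, and 12 divergent (36.4%). Among DnaJ cochaperones it was 6 of 29 (20.7%), led by dnj-9 at 85.6, dnj-10 at 40.3 and dnj-20 at 37.7. Heat shock proteins had 3 of 22 (13.6%), namely hsp-1 at 100.5, hsp-3 at 63.1 and hsp-43 at 35.9. The proteasome had 3 of 33 (9.09%), rpn-11 at 55.6, pbs-3 at 42.9 and pas-5 at 40.5, and 11 divergent (33.3%). The cytosolic chaperonin had 0 of 8 one-strand and 4 of 8 divergent, and the small nuclear ribonucleoprotein list had 1 of 7 and 4 of 7. Of 32 tRNA synthetases 1 had a one-strand region, fars-3 at 37.5.

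Nuclear hormone receptors, ligand-regulated transcription factors that form a large family in the worm, had 38 of 269 genes (14.1%) with a one-strand region and 5 (1.86%) with a divergent one. The strongest were nhr-291 at 73.6, nhr-58 at 71.3 and nhr-57 at 63.6. In replicate 1 these had 8.89, 6.11 and 8.34, and in replicate 2 they had 64.7, 64.3 and 61.5. In this family the one-strand share lay above the background of 7.89% and the divergent share below the background of 4.99%, while the ribosomal protein genes lay above both.

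In several other families the one-strand share lay below 7.89%. Chemoreceptor genes had 4 of 681 (0.587%), collagens 2 of 156 (1.28%), ceh homeobox genes 1 of 63 (1.59%), C-type lectins 7 of 240 (2.92%) and F-box A genes 6 of 170 (3.53%), although 11 F-box A genes (6.47%) had a divergent region, above the 4.99% of all genes. Cytochrome P450 genes had 3 of 74 (4.05%) and histones 3 of 72 (4.17%). Neuropeptide genes had 0 of 102 and T-box genes 0 of 19. Rab GTPases, which direct membrane traffic, lay near the background with 2 of 20 (10%), rab-10 at 25.1 and rab-6.2 at 23.2. Of 20 markers of pharynx, intestine, muscle, hypodermis, neurons and germline, 2 had a one-strand region. They were the yolk protein gene vit-2 at 25.9 pooled, 25.8 in replicate 2 and 8.03 in replicate 1, and the synaptobrevin gene snb-1 at 35.7, 28.5 and 4.85. The pharyngeal markers myo-1, myo-2, tnc-2, tni-4, phat-1 and phat-3 had neither a one-strand nor a divergent region. The same held for every listed marker of body wall muscle, hypodermis and germline. With shares of 7.89% and 4.99% over all genes, lists this short cannot tell absence in a tissue from the background.

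Measured from the nearest 5′ end in a window, members' summits had a median position of 236 bp upstream, with quartiles at 485 and 98 bp upstream. They were upstream for 1520 members and at or downstream of the end for 175. The median position was 136 bp upstream for divergent summits and 322 bp upstream for background-level summits. The window is part of the rule, so these are descriptions. Of the members' summits 62.5% were intergenic, 19.5% lay in introns, 5.55% in coding exons, 9.14% in untranslated exons and 3.30% in non-coding genes. Among background-level regions, 41.9% were intergenic and 20.2% lay in coding exons. For 328 members (19.4%) the nearest 5′ end lay over 200 bp inside the gene.

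**Figure D2:**
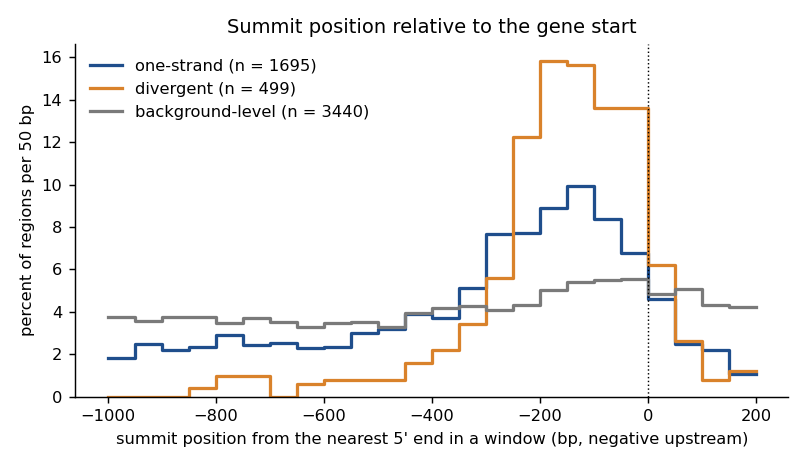
Percent of regions per 50 bp of summit position, with 0 at the nearest 5′ end in a window and negative values upstream, for one-strand (blue), divergent (orange) and background-level (grey) regions. One-strand summits peak at 9.91% of regions in the bin from 150 to 100 bp upstream and extend farther upstream than divergent summits, which peak at 15.8% in the bin from 200 to 150 bp.

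The upstream neighbour of the nearest gene pointed the same way for 59.5% of the 1535 genes nearest to a member, against 50.9% of all protein-coding genes. For 35.4% it was head to head, with a median gap of 3099 bp, against 42.2% and 1403.5 bp over all genes. Part of this follows from the rule, since short head-to-head gaps give divergent regions. One-strand windows covered 24.0 Mb, or 23.9% of the nuclear genome, and windows of both strands covered 2.35 Mb. The density was 70.7 members per Mb of one-strand window, 212 divergent regions per Mb of their windows and 24.4 of the 4000 strongest regions per Mb elsewhere.

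Sequence was not used to choose the members, so motif shares were tested. The list of motifs was drawn up with earlier results of these data known, so the p-values on motifs describe these regions and are not independent support for any word. A motif counted as present when any of its words occurred on either strand within 100 bp of the summit. Forkhead was TATTTAC or TATTTGC or TATTTGT or TGTTTAC or TGTTTGC or TGTTTGT. The GATA word was TGATAA, the GAGA repeat GAGAGAG, the E-box CACGTG, E2F TTTCGCG or TTTGGCG, homeodomain TAATTA, the GC box CCGCCC, the T run TTTTTTT and heat shock TTCTAGA. The words CACGTG and TAATTA are their own reverse complements. No word contains another, though words can overlap at their ends, and a match is not a binding site. Over all 24890 regions of the list, windows of the same length held forkhead in 27.4%, GATA in 22.4%, the GAGA repeat in 6.16%, the E-box in 4.62% and CTGCGTC in 4.01%. The same shares were 5.79% for E2F, 8.08% for homeodomain, 4.36% for the GC box, 38.0% for the T run and 3.40% for heat shock.

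At the members' summits, 7 motifs were more frequent and 2 less frequent than in equal windows 500 bp upstream of the summit, so 9 of 10 motifs (90%) passed an exact McNemar test, two-sided, with Benjamini-Hochberg adjustment. Forkhead words were found in 36.3% of summit windows and 24.1% of flanks (adjusted exact p = 3.32e-14). GATA words were in 32.6% and 20.8% (adjusted exact p = 3.12e-14). The largest contrast was for CTGCGTC, at 12.4% and 1.77% (adjusted exact p = 3.43e-35), followed by the GAGA repeat at 12.6% and 3.19% (adjusted exact p = 3.21e-24). E-boxes were in 9.73% and 4.66%, GC boxes in 6.84% and 3.13%, and E2F words in 7.43% and 5.43% (adjusted exact p = 0.0243). Homeodomain words fell from 11.3% in flanks to 6.08% at summits and T runs from 40.9% to 31.7%. Heat shock words, at 3.13% and 4.19%, did not pass (adjusted exact p = 0.12). In the optimal list E2F (adjusted exact p = 0.369) and homeodomain (0.0668) no longer passed, and against a flank 500 bp downstream the T run did not (0.0967). At least 1 of the 5 motifs forkhead, GATA, GAGA repeat, E-box and CTGCGTC was present in 1224 members (72.2%), and 471 had none of them.

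Occurrences were denser near the summit for 7 motifs and sparser for 3. Per kb and member, CTGCGTC was found 0.972 times within 25 bp of the summit and 0.142 times at 175 to 225 bp, GATA 2.96 and 1.17 times and forkhead 2.82 and 1.59 times. The T run was found 3.05 and 5.67 times, homeodomain 0.254 and 0.608 times and heat shock 0.174 and 0.389 times. G and C made up 39.1% of summit windows and 34.6% of flanks, so words rich in G and C and words of A and T alone move with base composition too. The part of base composition in these shares was not tested.

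Replicate 2 alone gave the same picture, with 9 of 10 motifs past the threshold. In replicate 1 alone 3 of 10 passed. Of its 1336 one-strand regions, 24.9% held a forkhead word at the summit and 24.9% in the flank (adjusted exact p = 1), and GATA words were in 20.5% and 19.7% (adjusted exact p = 0.779). The GAGA repeat was in 8.38% and 4.19% (adjusted exact p = 5.65e-05) and CTGCGTC in 5.46% and 2.92% (adjusted exact p = 0.0037), both higher at the summit by the exact McNemar test as in the pooled list, and the T run was lower.

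Against background-level regions, 9 of 10 motifs (90%) also passed a two-sided Fisher's exact test. CTGCGTC was in 2.67% of background-level regions, an odds ratio for members of 5.17 (adjusted exact p = 3.29e-40), and the GAGA repeat in 4.56%, an odds ratio of 3.02. Forkhead was in 25.3% (odds ratio 1.68), GATA in 21.9% (1.72) and the E-box in 3.55% (2.93). With the optimal list 7 of 10 passed, and GATA, in 26.7% of its members, did not (odds ratio 1.30, adjusted exact p = 0.0546). In replicate 1 alone, CTGCGTC (odds ratio 1.63) and the GAGA repeat (2.03) were higher than in its own background-level regions, while forkhead at 1.10 and GATA at 1.05 did not pass. Background-level regions had 35.6% G and C.

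**Figure D3:**
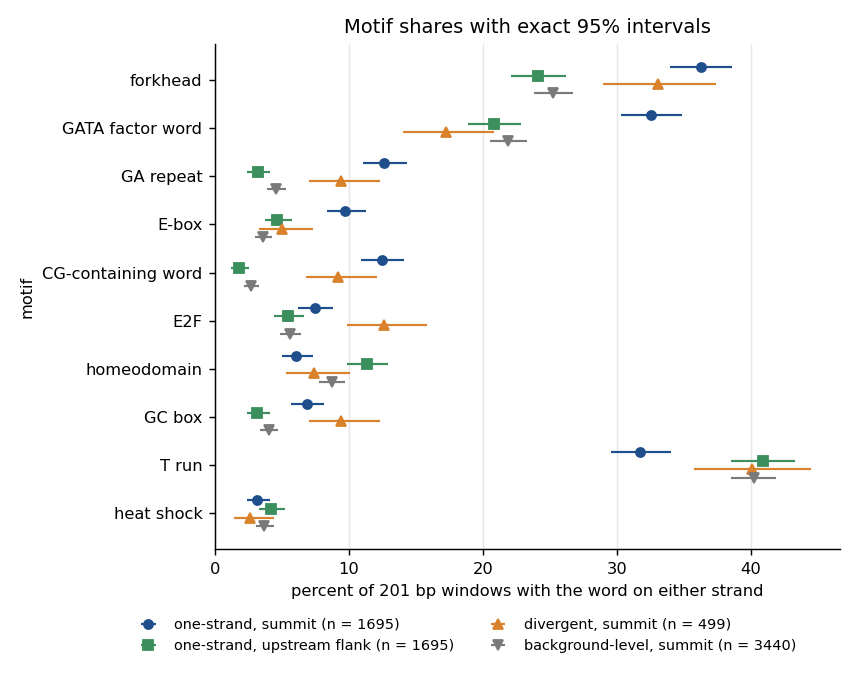
Percent of 201 bp windows that hold each motif on either strand, with exact 95% intervals, at one-strand summits (blue circles), their upstream flanks (green squares), divergent summits (orange triangles) and background-level summits (grey triangles); the CG-containing word is at 12.4%, 1.77%, 9.22% and 2.67% in that order. One-strand summits lie above the other 3 for the GATA factor word at 32.6% and below them for the T run at 31.7%.

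Divergent promoters differed from one-strand promoters in 4 of 10 motifs (40%) by two-sided Fisher's exact tests with Benjamini-Hochberg adjustment. GATA words were in 32.6% of one-strand regions (95% exact interval 30.3 to 34.9) and 17.2% of divergent ones (14.0 to 20.8), an odds ratio of 2.32 (adjusted exact p = 8.52e-11). E-boxes were in 9.73% and 5.01%, an odds ratio of 2.04 (adjusted exact p = 0.00188). E2F words were less frequent in one-strand regions, at 7.43% against 12.6% (odds ratio 0.556, adjusted exact p = 0.00188), and T runs too, at 31.7% against 40.1% (odds ratio 0.695). Forkhead was in 36.3% (34.0 to 38.6) and 33.1% (28.9 to 37.4), which did not pass (adjusted exact p = 0.252). CTGCGTC at 12.4% and 9.22%, the GAGA repeat at 12.6% and 9.42% and the GC box at 6.84% and 9.42% had adjusted exact p = 0.0921 each. Among the 2000 strongest regions these 3 and forkhead (odds ratio 1.37, adjusted exact p = 0.0408) passed as well, 8 of 10 in all. In the optimal list E2F did not pass (adjusted exact p = 0.0737), and in windows of 50 bp to either side the T run did not (0.316). G and C content was 39.1% ± 6.52 in one-strand and 38.9% ± 5.86 in divergent regions (SD over regions, n = 1695 and 499).

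The GATA contrast with divergent promoters rested on replicate 2. There it was 34.1% against 17.8%, an odds ratio of 2.39, whereas in replicate 1 alone it was 20.5% against 23.1%, an odds ratio of 0.858 (adjusted exact p = 0.724). Replicate 1 alone had 1 of 10 motifs past the threshold, E2F with an odds ratio of 0.411 (adjusted exact p = 0.00267), while the E-box at 1.22 and the T run at 0.972 did not pass. Without chromosome X the odds ratio of GATA in the pooled list was 2.27 and among summits within 300 bp upstream of a 5′ end it was 2.54. Along the ranking, GATA words were in 26.7% of members among the 839 strongest regions, 32.9% among the next 1161 and 34.8% among the last 2000, while CTGCGTC was in 18.8%, 11.7% and 10.3%.

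Motifs were not spread evenly over members, a comparison added after the data were seen. The GAGA repeat was in 25.6% of members with CTGCGTC and 10.8% of the others, an odds ratio of 2.85 (by Fisher's exact test over 10 pairs, adjusted exact p = 2.79e-07). In background-level regions the same pair had 13.0% and 4.33%, an odds ratio of 3.31 (adjusted exact p = 0.00667), so the association was not particular to members. Both occurred in 54 members, with over 20 bp between the words in 28 and a median gap of 25 bp. GATA was in 18.5% of members with CTGCGTC and 34.6% of the others (odds ratio 0.429, adjusted exact p = 7.21e-06), and in 20.1% of members with the GAGA repeat and 34.4% of the others (odds ratio 0.480), which did not pass in the optimal list (adjusted exact p = 0.21) or within 300 bp upstream (0.425). Forkhead was in 26.5% of members with CTGCGTC and 37.7% of the others (odds ratio 0.598), which did not pass in windows of 150 bp to either side (adjusted exact p = 0.102). GATA with the E-box was the fifth pair past the threshold, with an odds ratio of 1.52 (adjusted exact p = 0.0286). It passed in replicate 2 alone but in no other alternative run for the pairs, with odds ratios of 1.24 to 1.55 and adjusted exact p from 0.0546 to 0.689. In replicate 1 alone the pair of GAGA repeat and CTGCGTC passed, at an odds ratio of 4.07, and the other 4 did not. Members with GATA had a mean G and C content of 36.6%, against 43.2% with the GAGA repeat and 42.3% with CTGCGTC. The part of base composition in the pairs was not tested.

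Because each member serves 1 strand, its motifs could be read relative to the gene. Among members with a word on 1 strand only, 6 of 8 motifs (75%) favoured a direction by an exact binomial test, two-sided, with Benjamini-Hochberg adjustment. The T run was on the sense strand in 308 members and on the antisense strand in 164 (adjusted exact p = 2.63e-10). CTGCGTC was sense in 139 and antisense in 70 (66.5% sense, 95% exact interval 59.7 to 72.9, adjusted exact p = 5.56e-06). The GAGA repeat was sense in 65 and antisense in 141, so CTCTCTC mostly read towards the gene (adjusted exact p = 5.06e-07). Forkhead words as written were sense in 318 and antisense in 234 (adjusted exact p = 8.04e-04). GATA was sense in 189 and antisense in 247 (adjusted exact p = 0.01), and the GC box sense in 70 and antisense in 43 (adjusted exact p = 0.0188). E2F and heat shock words did not pass.

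The directions held in each replicate alone for these 6 motifs. Among the 2000 strongest regions 3 of them passed (T run, CTGCGTC and GAGA repeat), and in the optimal list, with 352 members, 0 of 8 did (1 with an unadjusted exact p under 0.05, the CTGCGTC element at 0.0169). Without exons in the window forkhead did not pass (adjusted exact p = 0.082), and with summits within 300 bp upstream GATA did not (0.179). Compared with the flank 500 bp upstream, 0 of 8 motifs (0%) passed a two-sided Fisher's exact test, and 2 had an unadjusted p under 0.05, CTGCGTC with 66.5% sense at the summit and 43.3% in the flank (adjusted exact p = 0.0965) and the T run with 65.3% and 57.0% (adjusted exact p = 0.0594). Some alternatives did pass that threshold. The T run passed in windows of 150 bp to either side (adjusted exact p = 0.0127) and with 1 region per gene (0.0253), and CTGCGTC with 1 region per gene (0.0253) and on autosomes. Against a flank 500 bp downstream both passed (adjusted exact p = 0.0321 each), as did the GAGA repeat (0.0393). Against background-level regions 0 of 8 passed, and 0 had an unadjusted p under 0.05. The closest were E2F and the T run at adjusted exact p = 0.405 each. At divergent promoters, read towards the nearer gene, the sense share was 52.3% for the T run, 50% for CTGCGTC and 54.3% for the GAGA repeat, against 65.3%, 66.5% and 31.6% at members, a difference that was not tested.

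Reading all 6-letter words showed what the directed motifs share. Of 2016 pairs of a word and its reverse complement, 534 (26.5%) favoured a direction by the exact binomial test with Benjamini-Hochberg adjustment. In 523 of the 534 the version on the sense strand held 4 or more pyrimidines (C or T), and in 0 it held 2 or fewer. Many pairs have a version with 4 or more, so that count is high in part by composition. With 5 or 6 pyrimidines on the sense strand there were 326 of the 534 (61.0%). Of all 2016 pairs, 448 (22.2%) have a version with 5 or 6. The leading word was TTTTCT, on the sense strand only in 565 members and on the antisense strand only in 215 (adjusted exact p = 9.23e-34). It was followed by TTTCTC with 449 and 169, and TTTCTT with 489 and 199. In flanks 26 of 2016 pairs (1.29%) favoured a direction, and in background-level regions 428 (21.2%), or 247 when as many regions as members were used. Replicate 1 alone gave 227 directed pairs and replicate 2 alone 579. The sense share of TTTTCT was 72.4% at members' summits, 62.7% at background-level summits, 57.2% in flanks and 54.1% at divergent summits, given as a description since the word was chosen on the members.

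Pyrimidine content, with 1 value a region, was chosen because of the words above and read on the same windows, so it is given as a description. More than 50% of the sense strand was C or T in 1265 of 1695 summit windows (74.6%). Among divergent regions, read towards the nearer gene, it was 54.5%, and these lie in windows of genes on both strands by the rule. It was 65% of background-level regions and 58.4% of upstream flanks, with 511 members over 50% at the summit only and 236 in the flank only. Replicate 1 alone gave 66.7% against 57.6% of divergent, 63.1% of background-level and 60.3% of flank windows. The odds ratio of members to background-level regions was 1.58, and 1.07 among summits within 300 bp upstream of a 5′ end.

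The profile of base content placed this asymmetry. At members the pyrimidine share of the sense strand was above 50% in all bins from 300 bp before to 300 bp after the summit, and highest at 56.4% in the bin at 100 bp towards the gene. Background-level regions were also above 50% in all bins, from 51.3% to 53.4%. At divergent promoters it was 45.4% in the bin 80 bp away from the nearer gene and 56.4% in the bin 80 bp towards it. In the bin away from the nearer gene, pyrimidines were thus more frequent on the opposite strand. At members T was 31.1% at the summit and 37.1% in the bin 120 bp towards the gene, and C was highest at the summit, at 23.2%.

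**Figure D4:**
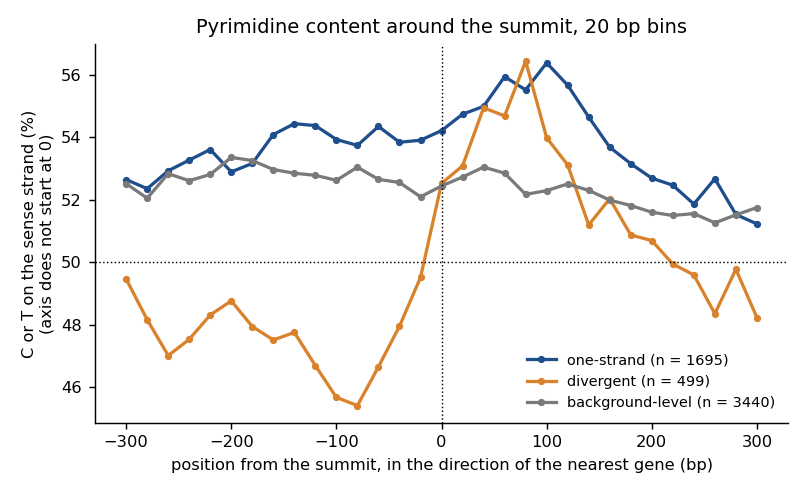
Percent of C or T on the sense strand in 20 bp bins from 300 bp before to 300 bp after the summit, read towards the nearest gene, for one-strand (blue), divergent (orange) and background-level (grey) regions; the axis does not start at 0. One-strand and background-level regions both stay above 50% throughout, with peaks of 56.4% and 53.4%, while divergent regions go from 45.4% to 56.4% across the summit.

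Members lay on chromosome X more often than divergent promoters did. X held 317 members (18.7%, 95% exact interval 16.9 to 20.6) and 20 divergent regions (4.01%, 2.47 to 6.12), an odds ratio of 5.51 (by Fisher's exact test over 6 chromosomes, adjusted exact p = 3.61e-18). Windows of 1 strand were themselves more frequent there: X held 15.6% of the bases in one-strand windows and 5.44% of those in windows of both strands. Per Mb of their windows there were 84.7 members on X and 70.7 over all chromosomes, and 156 divergent regions on X and 212 over all. X was not the densest in members, since chromosome III had 86.9 per Mb, and 325 divergent regions per Mb. Chromosome III held 15.3% of members and 23.8% of divergent regions (odds ratio 0.579, adjusted exact p = 6.05e-05) and chromosome I 15.5% and 20.2% (odds ratio 0.724, adjusted exact p = 0.0276). Of the bases in one-strand windows and in windows of both strands, III held 12.5% and 15.6%, and I held 14.1% and 17.5%. The tests compare counts of regions and do not allow for these window shares. Chromosomes II, IV and V did not pass. The tests in each replicate alone do not allow for the window shares either, so they cannot tell a trait of bound regions from the placing of windows. The lowest nuclear q-value in replicate 1 was 0.163, and replicate 2 is not a separate check of the pooled list. In replicate 2 alone the odds ratio for X was 5.88 and in replicate 1 alone 6.30, both past the threshold. Chromosome III also passed in each, and chromosome I did not in replicate 1 (odds ratio 0.752, adjusted exact p = 0.2) or among the 2000 strongest regions (0.716, adjusted exact p = 0.123).

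**Figure D5:**
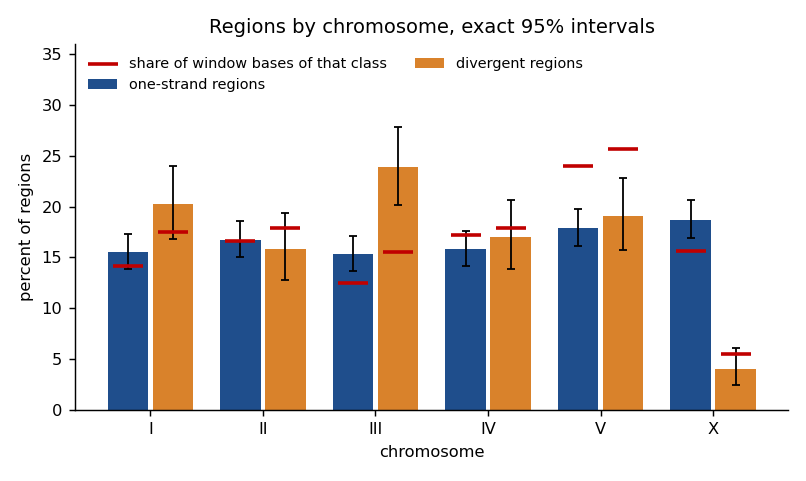
Percent of one-strand (blue) and divergent (orange) regions on each nuclear chromosome with exact 95% intervals, and, as red lines, the percent of window bases of the same class there. On X the bars are at 18.7% and 4.01% and the lines at 15.6% and 5.44%.

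The trans-splice acceptor TTTCAG ended within 10 bp before the annotated 5′ end at 344 of 1616 distinct 5′ ends nearest to members (21.3%) and 94 of 495 nearest to divergent regions (19.0%). The odds ratio of 1.15 did not pass a two-sided Fisher's exact test (p = 0.282). The call depended on the list and window, with odds ratios of 1.41 among the 2000 strongest regions (exact p = 0.0453), 2.02 in the optimal list (exact p = 0.00548), 1.43 with the narrower promoter window (exact p = 0.0218) and 1.41 in replicate 2 alone (exact p = 0.00998). In replicate 1 alone it was 0.833 (exact p = 0.295). Over all annotated protein-coding 5′ ends the share was 14.2%. The sense share of TTTTCT was 74.5% at the 364 members next to such an acceptor and 71.8% at the others, given as a description.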

How the data were processed

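The authors deposited lists of regions on builds ce11 and ce10, and the ce11 lists were used. There was a list for a pool of the 2 replicates, one for each replicate and an optimal list that passed their reproducibility test (IDR). The pooled and replicate lists are labelled as peaks and background for input to IDR, so many of their regions need not be binding regions. The deposited values are a signal (column 7) and the −log10 of a q-value, per the file format. The sources used here name no aligner, peak caller, control reads or depth. Fragments of 150 to 350 bp are per the labels. Summits were placed on the WBcel235 genome (RefSeq sequence, Ensembl 115 annotation), whose chromosomes hold every region.

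Python 3.11.15 with SciPy 1.17.1 gave exact McNemar, Fisher and binomial tests, with a threshold of 0.05 after Benjamini-Hochberg adjustment within each family, tested on simulated data. Regions are not independent samples: p-values describe regions of 1 pooled list, and intervals cover counting error only. A planned permutation test of G and C content was not run, so it is described only, as is pyrimidine content, which was chosen on the same windows. Members, gene lists and motifs were chosen with earlier results of these data known. Genes named are those of the 20 strongest members, up to 3 per list, the 5 with most members, the strongest exon-free member off chromosome I per motif more frequent at summits, pha-4 and the markers, plus those at the rank limit. Alternatives were window sizes, rank limits, the optimal list, a narrower promoter window, each replicate alone, 1 region per gene, a downstream flank and narrower forkhead words, and 3 added after the data were seen.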

Additional observations from a re-analysis of the deposited data

How the results depend on the processing

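Of 756 values recomputed under alternatives, 626 kept their direction and their side of the threshold (for counts, stayed within 1.5 times), 53 fell short of the threshold, 26 newly passed it, 29 reversed and 22 counts moved. The cause of each change was not tested, except that 2000 regions, the optimal list and summits within 300 bp leave fewer regions. Replicate 1 alone changed most, keeping 44 of 71 values. Replicate 2 alone kept 68 of 71, but 99.9% of members overlapped its regions, so it is not a separate check.

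Each replicate alone (replicate 1, then replicate 2) gave 3 and 9 of 10 motifs past the threshold at summit against flank, 1 and 5 against divergent promoters, 4 and 9 against background-level regions, 227 and 579 directed 6-letter words, and 1 and 5 pairs. Summit against flank was 0.996 and 1.99 for forkhead and 0.767 and 2.60 for the E-box, as the ratio of summit-only to flank-only members. The odds ratio against divergent promoters was 0.827 and 1.19 for forkhead and 0.858 and 2.39 for GATA, and that against background-level regions 0.977 and 2.86 for the E-box and 0.989 and 1.42 for E2F. The acceptor odds ratio was 0.833 (exact p = 0.295) and 1.41 (exact p = 0.00998), and the orientation of the GAGA repeat at summit against flank 1.12 and 1.08.

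The 2000 strongest regions gave 848 members, 8 motifs against divergent promoters, 3 directed motifs, 251 directed 6-letter words and an acceptor odds ratio of 1.41 (exact p = 0.0453). The optimal list gave 352 members, 0 directed motifs, 72 directed words, 3 pairs and an acceptor odds ratio of 2.02 (exact p = 0.00548); with the narrower promoter window it was 1.43 (exact p = 0.0218). Windows of 50 bp to either side gave 272 directed words, and windows of 150 bp gave 7 motifs against divergent promoters and 3 pairs. Summits within 300 bp upstream, added after the data were seen, gave 340 directed words, 3 pairs and a pyrimidine odds ratio against background-level regions of 1.07. Motif direction at summit against flank passed for 1 motif with windows of 150 bp and on autosomes, for 2 with 1 region per gene and for 3 with the downstream flank.

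The remaining reversals had adjusted exact p of 0.32 or more. Against divergent promoters the odds ratio of homeodomain was 1.15 (50 bp) and 1.06 (optimal list), of heat shock 0.708 (optimal list) and 0.868 (within 300 bp), of forkhead 0.911 (narrower words), of chromosome IV 1.03 (2000 strongest) and of chromosome V 1.28 (optimal list). The direction ratio of E2F was 1.58 (optimal list), and heat shock at summit against the downstream flank 1.08. For direction at summit against flank, forkhead had 0.877 (50 bp), 0.976 (150 bp), 0.836 (2000 strongest) and 0.991 (autosomes), the GAGA repeat 1.31 (optimal list), 1.24 (1 region per gene) and 1.44 (no exon), E2F 1.10 (optimal list), 1.17 (downstream) and 1.14 (no exon), and heat shock 0.933 (within 300 bp). No paired analysis was possible because there was 1 group.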
